A study of Mus musculus with 6 samples.

Results

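Hydrogen peroxide is removed inside cells by a small set of enzymes, and the transcripts of 10 of them were read from 6 two-colour arrays of mouse embryonic fibroblasts: catalase (Cat), the glutathione peroxidases Gpx1, Gpx3 and Gpx4, and the peroxiredoxins Prdx1 to Prdx6. The genes were taken by the gene name that the array design gives each probe. They were measured by 15 probes, printed as 24 spots on each array, out of 29742 gene names, 41174 probes and 41534 spots that were not controls. Catalase splits H2O2 in peroxisomes without a cosubstrate, whereas glutathione peroxidases spend reduced glutathione and peroxiredoxins are reduced again mainly by thioredoxin. The enzymes also differ in where they work, from the cytosol, mitochondria and endoplasmic reticulum to the extracellular fluid, and in what they reduce, since Gpx4 acts on lipid hydroperoxides within membranes. Several of these genes are known to respond to oxidants in cultured cells.

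The fibroblasts were primary cells from embryos of embryonic day 15 by the labels, of a mixed 129/Sv/Black Swiss background, and were either wild type or homozygous for an in-frame deletion of part of the helicase domain of Wrn (WrnΔhel/Δhel, called mutant here). Treated cells received 0.5 mM H2O2 for 1 h, and RNA was taken 24 h later. There were 2 arrays for each of 3 comparisons: treated (Cy5) against untreated (Cy3) wild type cells, treated (Cy5) against untreated (Cy3) mutant cells, and the 2 genotypes against each other without treatment, the last called the genotype arrays. The labels name the replicates biological, and whether they came from separate embryos is not given in the sources used here. By the labels the dyes were not exchanged between the 2 arrays of any comparison. A probe's preference for a dye therefore enters each treatment ratio and each ratio of the genotype arrays.

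The sources conflict on the direction of the genotype arrays. The sample labels place wild type cRNA in Cy5, while the study's own list of this comparison runs as if Cy5 carried mutant cRNA. The ratios are therefore given as Cy5 over Cy3, which reads as mutant over wild type only by that list, and every sign turns by the labels. A measure with a settled direction was taken from the Cy3 channel of the 4 treatment arrays, in which untreated mutant cells of 2 arrays can be set against untreated wild type cells of the other 2 in the same dye.

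As to the arrays as a whole, Cy3 stood well above background on 75.8% to 90% of the spots and Cy5 on 41.5% to 69.2%. The ratios of 2 arrays of one comparison correlated across probes with r of 0.78 in wild type, 0.62 in mutant and 0.54 on the genotype arrays. All 10 fibroblast marker genes were well above background in Cy3 on every array, with none at 0. Some markers of other cell types were so too, such as Acta1, Myod1, Fabp4, Apob and Hbb-b1. Detection alone therefore does not measure the purity of the cultures. Whether the 4 Wrn probes lie in the deleted stretch is not known here, so they do not check the labels. On the genotype arrays 1 of them passed the test, beside 19.9% of all probes, with a log2 ratio of -0.90 (limma adjusted p = 0.0111). That probe was dim, with log2 intensities of 3.40 to 4.42 in Cy3 of the treatment arrays. The other Wrn probes had ratios of 0.37, 0.38 and -0.00117. Within Cy3 none passed. The scanner software had marked 6.66% of all spots as outliers, and 35.4% of the spots of the 10 genes (51 of 144). Among all spots at least as bright as the median spot of these genes the share was 34.5%. The marked member spots numbered 13 of 24 on both wild type arrays and on replicate 2 of the mutant arrays, 10 on genotype replicate 3, and 1 on each of the other two. Marked spots were left out of the tests and kept in the values per array given here, and the test with them kept is given where it changes a call. No member spot was saturated.

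Promoter sequence from RefSeq (GRCm38.p6) was matched for 9 of the 10 genes, in 12 windows of 250 bases before a transcription start, with Prdx6 not in the table. Both strands were searched for 4 motifs: the AP-1 element TGANTCA, the core TGACNNNGC of the antioxidant response element through which NRF2 acts, the ETS element CCGGAAG and the forkhead element TGTTTAC. These letters were found in 6.75%, 10.2%, 6.91% and 3.17% of all 32851 windows of that length. Among the 12 windows, TGANTCA and TGACNNNGC were found only before Prdx1, CCGGAAG only before Prdx5, and TGTTTAC in none. The window before Prdx1 is shown as the one that holds both oxidant-related motifs, and those before Gpx4 and Prdx5 because these 2 genes passed the test between genotypes. Capitals mark the matched motifs, and a match is a description of the letters, not of a bound site.
Prdx1 (chr4:116685349-116685598, plus strand): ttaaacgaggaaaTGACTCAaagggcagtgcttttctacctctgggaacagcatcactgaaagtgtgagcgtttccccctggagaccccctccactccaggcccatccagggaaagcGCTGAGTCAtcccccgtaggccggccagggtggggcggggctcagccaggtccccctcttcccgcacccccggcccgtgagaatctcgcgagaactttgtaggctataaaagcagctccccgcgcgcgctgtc
Gpx4 (chr10:80053315-80053564, plus strand, the second of 4 starts): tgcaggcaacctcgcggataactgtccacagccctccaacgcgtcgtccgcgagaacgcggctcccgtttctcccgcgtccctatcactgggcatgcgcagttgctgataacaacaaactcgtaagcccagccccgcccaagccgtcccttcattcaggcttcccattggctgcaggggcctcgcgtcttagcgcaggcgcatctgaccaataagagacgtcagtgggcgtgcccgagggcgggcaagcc
Prdx5 (chr19:6910107-6910356, minus strand): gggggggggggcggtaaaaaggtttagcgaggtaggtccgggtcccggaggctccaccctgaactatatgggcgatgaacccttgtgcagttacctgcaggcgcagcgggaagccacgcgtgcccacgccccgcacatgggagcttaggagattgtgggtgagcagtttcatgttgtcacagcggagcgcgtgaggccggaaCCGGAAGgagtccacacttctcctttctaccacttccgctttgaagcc
Counted from the start, TGACTCA begins at position -237 and TGAGTCA at position -131 of the Prdx1 window, and the second of these lies within the match GCTGAGTCA to the antioxidant core. The Gpx4 window held none of the 4 motifs.

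The first question was how the transcripts stood 24 h after H2O2 in wild type cells. None of the 10 genes passed the test. Of the 7 whose brightest probe could be tested, 0 had an adjusted p under 0.05, beside 0.853% of all genes, and 2 had an unadjusted p under 0.05, Prdx3 above and Gpx3 below 0, beside 19.9% of all genes. The remaining genes, Gpx1, Prdx1 and Prdx5, had their spots marked on both arrays, and with marked spots kept 0 of 10 passed, beside 2.46% of all genes. Among the brightest probes the largest log2 ratio on either wild type array was 0.68 in size.

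Prdx3, the peroxiredoxin of mitochondria, had log2 ratios of treated over untreated of 0.60 and 0.64 in wild type cells. Both arrays lay above 0, and the mean was 0.62 (SE 0.21, n = 2, limma adjusted p = 0.161). Gpx3, the secreted glutathione peroxidase, had ratios of -0.68 and -0.44. Both arrays lay below 0, with a mean of -0.56 (SE 0.16, n = 2, limma adjusted p = 0.123). Both results depended on the arrays that share the estimate of the spread: in a limma fit of the wild type pair alone the adjusted p was 0.00451 for Prdx3 and 0.00949 for Gpx3, where 26.5% of all probes passed. When either genotype array was left out it was 0.00682 and 0.0142, where 23.5% passed. Gpx3 was also called with the normexp background correction, at -0.44 and an adjusted p of 0.0415, beside 5.07% of all probes, and Prdx3 with ratios scaled between arrays, at 0.70 and an adjusted p of 0.0484, beside 11% of all probes.

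Catalase had ratios of 0.24 and 0.42 in wild type cells (mean 0.33, SE 0.17, limma adjusted p = 0.345). The glutathione peroxidase of the cytosol and mitochondria, Gpx1, lay at -0.05 and 0.05, on either side of 0, and the lipid hydroperoxide-reducing Gpx4 at -0.21 and -0.10. Among the peroxiredoxins of the cytosol, Prdx1 had ratios of -0.10 and 0.04 and Prdx2 of 0.21 and 0.23. Prdx4, which works in the endoplasmic reticulum, had 0.21 and 0.25, Prdx5, which is found in mitochondria, peroxisomes and the cytosol, 0.17 and 0.04, and Prdx6, which is reduced by glutathione, 0.24 and 0.32. Thus by the brightest probes 6 of the 10 lay above 0 on both wild type arrays, beside 39.1% of all genes, and 2 lay below, beside 34.6%. The count turns on the probe for 2 of the 6. The Prdx2 probe A_52_P550034 had -1.05 and -0.57, and the Prdx6 probe A_52_P540855 -0.89 and -1.19. The Prdx2 probe A_52_P893440 also lay below 0 on both arrays, while the dim Prdx6 probe A_52_P388359 lay above. Fibroblast markers had a median log2 ratio of -0.99 in these cells, with 0 of 7 tested markers passing, and with marked spots kept one of -0.65 with 1 of 10 passing, Col3a1 at -1.62 (adjusted p = 0.0473), and their part in the members' ratios was not tested.

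**Figure D1:**
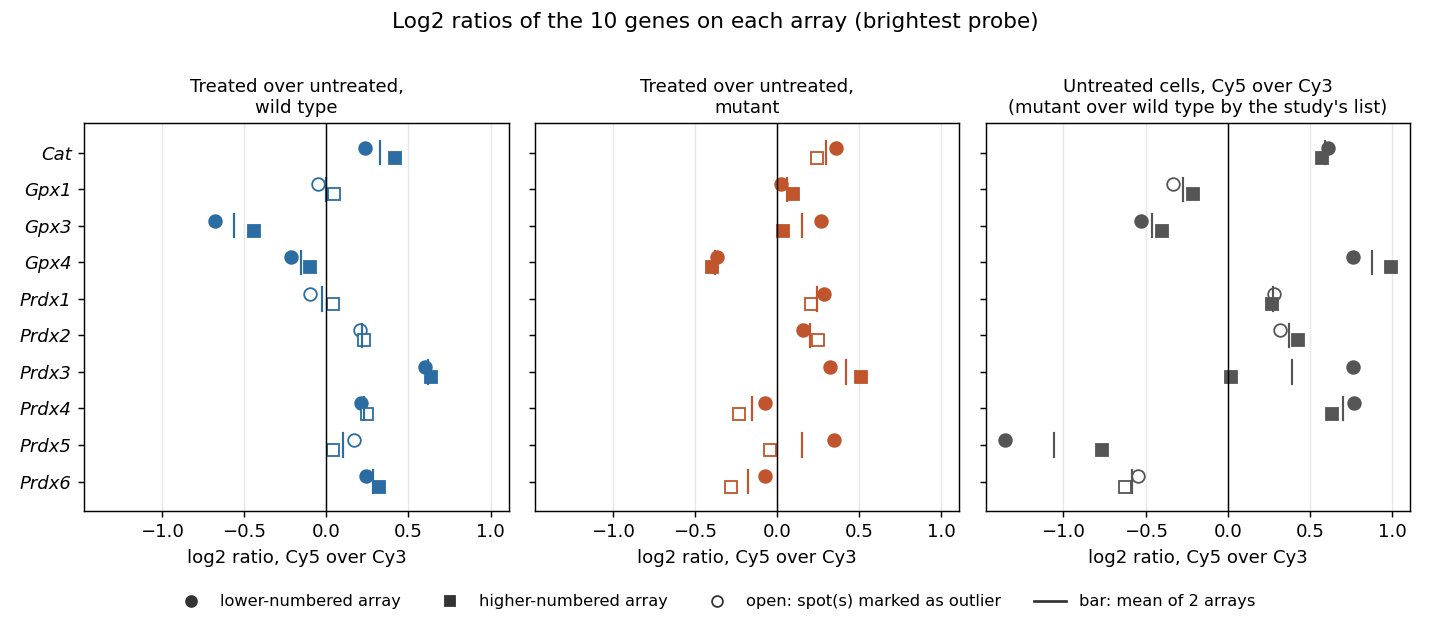
Log2 ratio of Cy5 over Cy3 on each array for the brightest probe of each gene, with circles for the lower-numbered and squares for the higher-numbered array of a pair, open symbols where at least 1 spot was marked as an outlier, and a bar at the mean of 2 arrays. The treatment ratios of both genotypes stay within 0.68 of 0, whereas on the genotype arrays Gpx4 lies at 0.76 and 0.99 and Prdx5 at -1.36 and -0.76.

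In the mutant cells the same treatment was compared with the untreated mutant cells. Again 0 of the 10 genes passed the test, and neither did any other gene (0%); at an unadjusted p under 0.05 stood 1 of the 10, Gpx4, beside 12.6% of all genes. Gpx4 had ratios of -0.37 and -0.40. The arrays nearly coincided, at a mean of -0.38 (SE 0.16, n = 2, limma adjusted p = 0.406). Prdx3 had ratios of 0.33 and 0.51 (mean 0.42, SE 0.21, adjusted p = 0.474) and catalase of 0.36 and 0.25. Prdx1 had 0.28 and 0.21, Prdx2 0.16 and 0.25, and Gpx1 0.02 and 0.10, all above 0 on both arrays. Gpx3 had 0.27 and 0.03. Prdx4 had -0.07 and -0.23 and Prdx6 -0.07 and -0.28, both below 0 on both arrays, while Prdx5 had 0.35 and -0.04. Thus by the brightest probes 6 of the 10 lay above 0 on both mutant arrays, beside 35.9% of all genes, and 3 lay below, beside 33.7%. With each array's ratios centred on their median in place of loess, limma called 3 of the 10 in mutant cells, Cat at 1.60, Prdx2 at 1.11 and Prdx3 at 1.27, with adjusted p of 0.0474, 0.0484 and 0.0483, beside 6.52% of all probes under that setting.

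Over both genotypes, Cat, Prdx2 and Prdx3 lay above 0 on all 4 treatment arrays, 3 of the 10 beside 21.8% of all genes, and Gpx4 lay below 0 on all 4, 1 of the 10 beside 19.4%. These 3 genes also lay above 0 in Cy5 over Cy3 on both genotype arrays, where no treated cells were used, as did 36.4% of all genes. Within Cy3 the same 3 were higher in untreated mutant than in untreated wild type cells without overlap, as given below. The parts of dye, genotype and treatment in these ratios were not tested. For Prdx2 this is the brightest probe, and the probe A_52_P550034 lay below 0 on all 6 arrays.

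Whether the responses differed between genotypes was tested as the mutant ratio minus the wild type ratio, from which a probe's preference for a dye drops out. None of the 7 genes that could be tested passed (0 of 29035 genes did, 0%, with 5.83% at an unadjusted p under 0.05). The largest difference was that of Gpx3, which lay below 0 on both wild type arrays and above 0 on both mutant arrays, as given above. Its difference was 0.71 (SE 0.23, 95% interval 0.17 to 1.26, limma adjusted p = 0.78), and it was the only one of the 10 with an unadjusted p under 0.05. The difference was -0.23 for Gpx4 (interval -0.75 to 0.30), -0.20 for Prdx3 (-0.89 to 0.49) and 0.05 for Prdx2 (-0.46 to 0.56). With marked spots kept, it was -0.02 for Cat (-0.54 to 0.49), -0.38 for Prdx4 (-0.89 to 0.13) and -0.46 for Prdx6 (-0.98 to 0.06). These intervals leave room for differences of the size of the responses themselves.

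Untreated cells were then compared between genotypes on the genotype arrays. Gpx4 was higher and Prdx5 lower in Cy5 than in Cy3, 2 of the 9 genes tested, beside 19.4% of all genes (11% higher and 8.41% lower). By the study's list these are higher and lower levels in mutant cells, and by the labels the reverse. The share is near that of all genes. With marked spots kept, 5 of the 10 passed, beside 22% of all genes. Those 5 were Cat, Gpx4 and Prdx4 higher, and Prdx5 and Prdx6 lower. In a fit limited to probes with a mean log2 intensity over 6, 5 of 9 passed, beside 36.9% of such probes.

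For Gpx4 the log2 ratios were 0.76 and 0.99 on genotype replicates 3 and 4. Both lay above every treatment ratio of this gene, and the mean was 0.88 (SE 0.16, n = 2, limma adjusted p = 0.011), a 1.84-fold difference. For Prdx5 the ratios were -1.36 and -0.76. Both lay below every treatment ratio of this gene, and the mean was -1.06 (SE 0.22, n = 2, limma adjusted p = 0.0301), a 2.08-fold difference. Gpx4 passed without any 1 of the 6 arrays, whereas Prdx5 had an adjusted p of 0.063 without either mutant treatment array. Prdx5 also did not pass with the scanner's log ratio (adjusted p = 0.157), median centring (0.198), scaled ratios (0.0552) or these arrays alone (0.115), and Gpx4 did not pass when these arrays were fitted alone.

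Prdx4 had ratios of 0.77 and 0.64 (mean 0.70, SE 0.18, limma adjusted p = 0.0508, and 0.0194 with marked spots kept). Catalase had 0.61 and 0.58 (mean 0.59, SE 0.17, adjusted p = 0.0529, and 0.0339 with marked spots kept). Both genes thus lay next to the threshold and crossed it with the treatment of marked spots. Prdx6 had ratios of -0.54 and -0.62, both from marked spots, and an adjusted p of 0.0363 with these kept. Gpx3 had -0.52 and -0.40 (mean -0.46, adjusted p = 0.0891) and Gpx1 had -0.33 and -0.21, both below 0. Prdx1 had 0.28 and 0.27 and Prdx2 0.32 and 0.43 (mean 0.38, adjusted p = 0.123). Prdx3 differed most between the arrays, at 0.76 and 0.02. Altogether 6 of the 10 lay above and 4 below 0 on both arrays by the brightest probes, beside 36.4% and 30.3% of all genes. Fibroblast markers passed on these arrays in 6 of 9 cases, all with a higher Cy5, at a median log2 ratio of 1.15, while 0 of 8 macrophage markers passed, and the markers' part in the members' ratios was not tested.

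The Cy3 channel of the treatment arrays gave log2 intensities of untreated cells with the genotypes given alike by labels and methods. None of the 7 genes that could be tested passed, beside 1.7% of all genes, and 1 had an unadjusted p under 0.05 (Cat), beside 13.7%. With marked spots kept, 0 of 10 passed, beside 0.767% of all genes.

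Catalase had log2 intensities of 9.18 and 7.98 in untreated wild type cells and of 9.72 and 9.89 in untreated mutant cells. The genotypes did not overlap, and the difference was 1.23 with marked spots kept (SE 0.45, limma adjusted p = 0.284). Wild type replicate 2 was the lowest of the 4. With marked spots left out, which removes mutant replicate 2, the difference was 1.14 (adjusted p = 0.318). On that basis it was 1.74 without wild type replicate 1 (adjusted p = 0.0181) and 0.54 without replicate 2 (adjusted p = 0.758), each a comparison of 1 array with 1, assumed to vary like other probes. Prdx4 had 10.33 and 9.77 in wild type and 10.72 and 11.23 in mutant cells. The groups did not overlap here either, at a difference of 0.93 with marked spots kept (SE 0.40, limma adjusted p = 0.358). With marked spots left out 1 array of each genotype remained, and the difference was 0.39 (SE 0.53, adjusted p = 0.804).

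Prdx5 had 10.10 and 10.27 in untreated wild type cells and 9.07 and 9.08 in untreated mutant cells. Among the 10 this was the gene whose genotypes lay farthest apart relative to the replicates, and the difference was -1.11 with marked spots kept (SE 0.38, limma adjusted p = 0.262). Its spot was marked as an outlier on both wild type arrays and on mutant replicate 2. With marked spots left out the gene could therefore not be tested within Cy3. On the genotype arrays the same probe stood at 10.54 and 10.10 in Cy3 and at 9.18 and 9.34 in Cy5. Gpx4 had 11.01 and 10.85 in wild type and 11.65 and 11.20 in mutant cells (difference 0.49, SE 0.36, adjusted p = 0.593), again without overlap.

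Prdx2, at 11.17 and 10.48 against 11.36 and 11.19, and Prdx3, at 9.69 and 9.16 against 9.86 and 10.03, also lay higher in the mutant cells without overlap. The levels of Gpx1, Gpx3, Prdx1 and Prdx6 overlapped between genotypes. Hence 5 of the 10 lay above in mutant cells without overlap, beside 26.8% of all genes, and 1 below, beside 19.1%. In treated cells, read in Cy5 on the same arrays, 6 lay above without overlap (Cat, Gpx3, Gpx4, Prdx1, Prdx2 and Prdx4), beside 22.5%, and 2 below (Prdx5 and Prdx6), beside 16.7%. Treated and untreated cells of one replicate share an array, so the 2 readings are not independent.

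**Figure D2:**
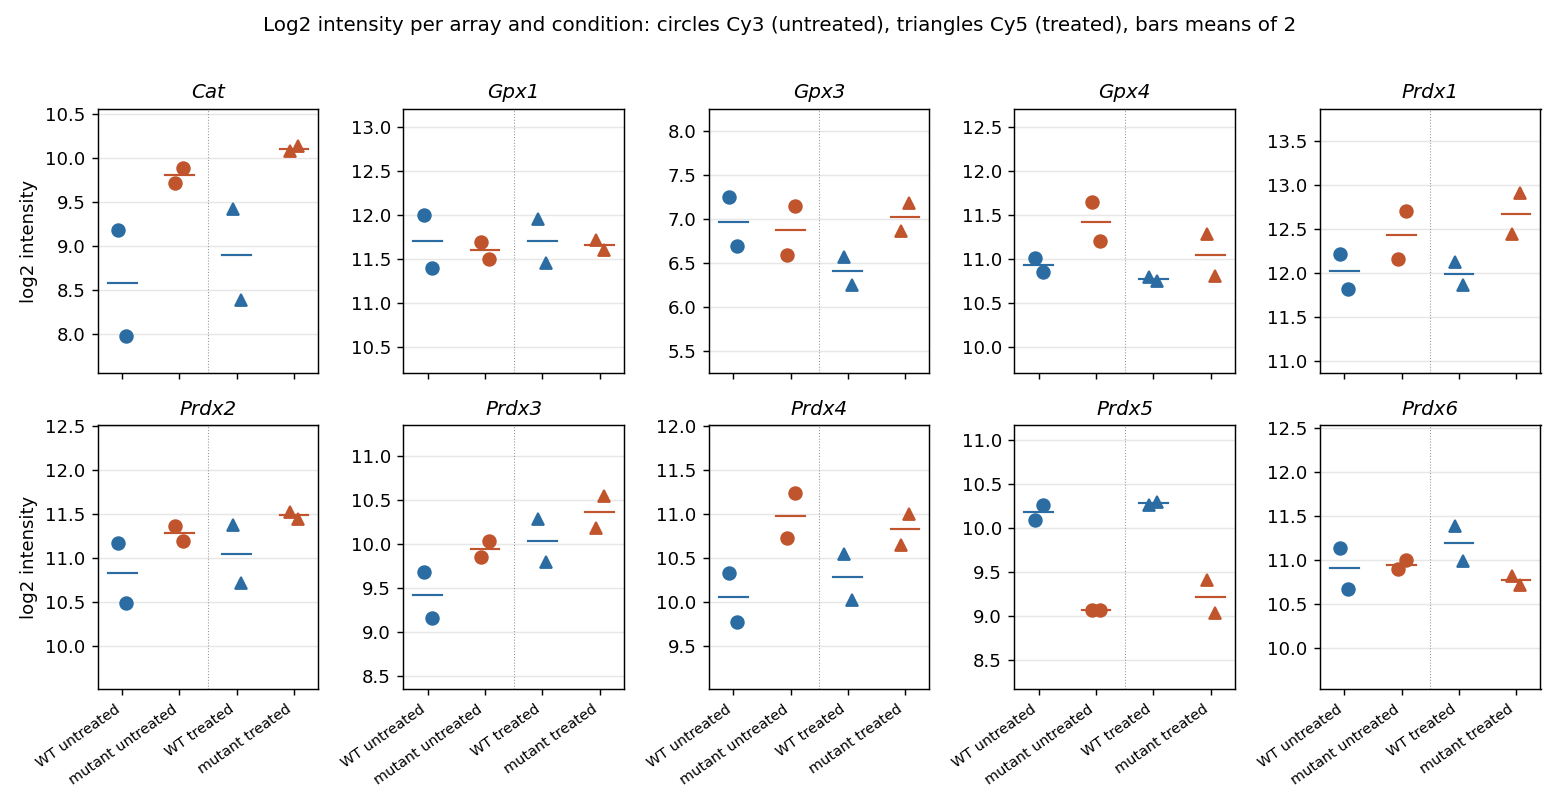
Log2 intensity of the brightest probe of each gene in untreated cells (Cy3, circles) and treated cells (Cy5, triangles) of the 4 treatment arrays, wild type in blue and mutant in orange, with bars at the mean of 2 arrays and 3 log2 units on every vertical axis. The means of Prdx5 are 10.2 in untreated and 10.3 in treated wild type cells and 9.07 and 9.23 in mutant cells, and Cat shows the widest gap between its wild type replicates, 9.18 and 7.98.

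The fibroblast markers also moved with genotype in this channel: their median log2 intensity was 11.68 and 11.26 in untreated wild type and 12.71 and 13.06 in untreated mutant cells, and 2 of 7 tested markers passed, both higher. Their summed Cy3 signal before normalization was 215161 to 217355 in wild type and 103140 to 122799 in mutant cells, on arrays whose median Cy3 signals were 227 and 302 against 145 and 140. Among the treatment arrays, the summed Cy3 signal of all 7 marker sets before normalization was highest on wild type replicate 2. Erythroid markers summed to 20126 there against 1023 to 2463 on the other 3 arrays, and adipocyte markers to 20294 against 2610 to 6682. That array also had the highest median Cy3 signal, 302. The median log2 intensity in Cy3 was highest there for the adipocyte, hepatocyte and skeletal muscle sets only. It was lowest there for the fibroblast and macrophage sets. For the erythroid and endothelial sets it lay within the range of the other arrays. The normalized Cy3 level of 8 of the 10 genes was lowest on that replicate, Gpx3 and Prdx5 being the exceptions. The part of these markers in the differences was not tested.

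The genotype arrays and the Cy3 difference share no sample. Read as Cy5 over Cy3, 9 of the 10 genes had the same sign in both with marked spots kept, all but Prdx6, beside 67.4% of all genes; read by the labels, 1 of the 10 would. For Prdx5 the values were -1.06 and -1.11, for Prdx4 0.70 and 0.93, for Gpx4 0.88 and 0.49, and for Cat 0.59 and 1.23. For Prdx6 they were -0.58 and 0.04.

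**Figure D3:**
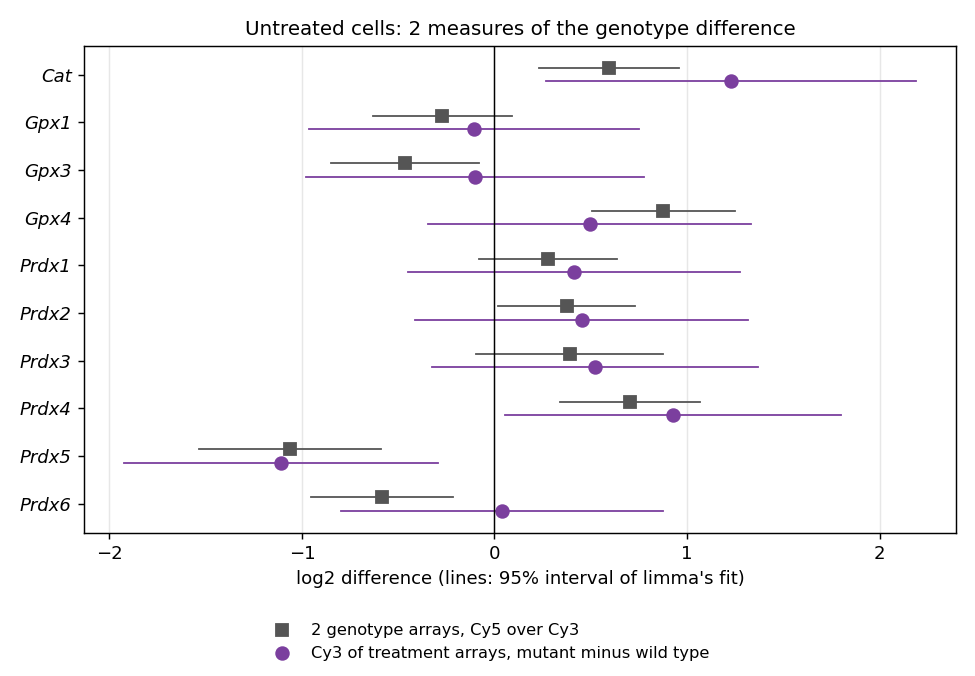
Log2 difference between genotypes in untreated cells for the brightest probe of each gene, marked spots kept, on the 2 genotype arrays (squares, Cy5 over Cy3) and within Cy3 of the 4 treatment arrays (circles, mutant minus wild type), with 95% intervals of limma's fits. Prdx5 lies at -1.06 and -1.11, Prdx6 at -0.58 and 0.04, and the intervals of the Cy3 measure are the wider ones.

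For 3 of the genes more than 1 probe was printed, and the probes did not give the same ratios. Prdx2 was read by A_51_P147207, at 10 spots per array, whose mean ratios lay between 0.16 and 0.43 on all 6 arrays with a standard deviation between spots of 0.034 to 0.090. The probe A_52_P550034 for the same accession lay below 0 on all 6 arrays, from -1.30 to -0.26, and A_52_P893440 on 5 of 6, so the disagreement between probes exceeded the spread between spots several times over. Prdx6 was read by A_51_P496023, given above, and by A_52_P540855, which lay below 0 on all 6 arrays, from -2.37 to -0.44, and by A_52_P388359, whose Cy5 was not well above background on any array. The dimmer Gpx1 probe A_51_P119726 had -1.03 and -0.31 on the genotype arrays, where the brighter one had -0.33 and -0.21.

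Untreated cells in Cy5 of the genotype arrays were also set against untreated cells in Cy3 of the treatment arrays. For the Prdx2 probe A_52_P550034 the log2 difference was -0.72 against mutant cells, which are the same genotype by the study's list, and -0.75 against wild type cells, the same genotype by the labels. For the Prdx6 probe A_52_P540855 it was -0.67 and -1.04. For the brightest probes the values were 0.22 and 0.67 for Prdx2 and -0.30 and -0.26 for Prdx6. The sign was the same under both readings for 5 of the 10 brightest probes, those of Gpx1, Gpx3, Gpx4, Prdx2 and Prdx6, with 0.28 and 0.77 for Gpx4. The part of the dyes in these probes' ratios was not tested. On the genotype arrays A_52_P540855 passed with marked spots kept, at -1.63 and an adjusted p of 0.0129, in the same direction as the brightest Prdx6 probe. RefSeq names pseudogenes or near copies of Prdx1, Prdx2, Prdx6 and Gpx4, and which transcripts each probe binds was not checked here.

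The enzymes depend on partners that supply glutathione, thioredoxin and NADPH, on enzymes that make H2O2, and on the machinery for peroxisomes and selenoproteins, and 91 such genes in 8 lists were read, 88 of them on the array. In treated wild type cells 3 of 85 passed, all higher, beside 0.853% of all genes: Chac1, which degrades glutathione (log2 ratios 3.37 and 2.95, adjusted p = 0.0181), Ero1a, an oxidase of the endoplasmic reticulum that yields H2O2 (1.71 and 1.30, adjusted p = 0.0364), and Maoa, a monoamine oxidase that also yields it (1.35 and 1.27, adjusted p = 0.0474). With marked spots kept, 7 passed higher and 2 lower of 88, beside 2.46% of all genes. In the mutant cells 0 of 88 passed by limma, with 10 above and 8 below 0 at an unadjusted p under 0.05, beside 6.33% and 6.24% of all genes, and Chac1 had ratios of -1.03 and -0.50. Its difference between the responses was -3.93, which did not pass (adjusted p = 0.159). Thioredoxin reductase Txnrd1, which keeps the peroxiredoxins' donor reduced, did not pass in wild type cells with marked spots left out. Only 1 wild type array remained for it there, at a ratio of 1.05. With marked spots kept its mean ratio was 1.04 in wild type cells (limma adjusted p = 0.0368). On the same basis the mean was 0.36 in the mutant (limma adjusted p = 0.394). The difference between the responses was then -0.68, which did not pass (limma adjusted p = 0.671).

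On the genotype arrays 31 of 88 passed, 22 with a higher and 9 with a lower Cy5, beside 19.4% of all genes. In a fit limited to probes with a mean log2 intensity over 6, which not all list genes reached, 36.9% of probes passed. Sources of peroxide gave 6 higher and 2 lower of 22, peroxisome import 4 higher and 0 lower of 14, glutathione supply 3 higher and 2 lower of 10, the thioredoxin system 2 higher and 1 lower of 17, NADPH supply 2 higher and 1 lower of 10, superoxide dismutases 2 higher and 0 lower of 4, selenoprotein synthesis 1 higher and 2 lower of 6, and the other glutathione peroxidases 2 higher and 1 lower of 5. The 5 largest in the first direction were the oxidase subunit Ncf4 at 2.57, Chac1 at 2.35, xanthine dehydrogenase Xdh at 1.65, the selenocysteine lyase Scly at 1.49 and Ero1a at 1.36. In the other direction stood Maob at -2.77, Sepsecs, which completes selenocysteine on its tRNA, at -2.56, Gclm, a subunit of the enzyme that begins glutathione synthesis, at -1.35, glutaredoxin Glrx at -1.25 and malic enzyme Me1 at -0.94. Among the other glutathione peroxidases, Gpx6 at 1.31 and Gpx7 at 1.18 passed in the same direction as Gpx4, and Gpx8 at -0.79 in that of Prdx5. Gpx6 lay above 0 on all 6 arrays, from 0.47 to 1.51, and the part of the dyes in this was not tested. Several of these probes were dim, with a mean log2 intensity of 5.31 for Gpx6, 5.83 for Ncf4, 4.85 for Maob and 5.55 for Sepsecs. Within Cy3, 3 passed higher in mutant cells, Ncf4 at 2.47, Chac1 at 1.79 and Xdh at 1.66, and 1 lower, Maob at -1.93, of 85, beside 1.7% of all genes, and with marked spots kept Ncf4 alone passed. Of the 31 list genes that passed on the genotype arrays, 30 had a Cy3 difference. Read as Cy5 over Cy3, 29 of these 30 had the same sign in both measures, all but Pex14. Among all genes, passing or not, 67.4% did with marked spots kept. The median over the lists was 0.14 on the genotype arrays and 0.13 in treated wild type cells, beside 0.04 and 0.00 over all genes.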

How the data were processed

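Cy3- and Cy5-labelled cRNA was hybridised in pairs to 6 Agilent whole mouse genome oligonucleotide arrays. The deposited files hold, per the file headers, spot intensity values in each dye (mean and local background) with the flags and the log10 ratio that the scanner software made. The authors also deposited a table of log2 ratios, one column per array, which correlated with the ratios used here at r of at least 0.999. The protocol labels name total RNA where the methods name cytoplasmic RNA.

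Here local background was subtracted and each array was normalized by loess, with control spots at weight 0. Spots marked as outliers were left out and saturated spots kept, spots of a probe were averaged, and levels per dye were taken after Aquantile normalization. R 4.3.3 and limma 3.58.1 (lmFit, eBayes) were fitted to all 6 arrays with 1 coefficient per comparison, with Benjamini-Hochberg adjustment over all probes and a threshold of 0.05. Untreated levels were fitted separately within Cy3. A gene was represented by its brightest probe over the 6 arrays. All 10 genes were named, and of the other lists those that passed the test, limited to the 5 largest in each direction on the genotype arrays, with the other glutathione peroxidases and Txnrd1 added after their values were seen. The fits were checked on simulated data. With 2 arrays per comparison, their number limits the precision. The genes and lists were chosen with earlier results of these data known.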

Additional observations from a re-analysis of the deposited data

How the results depend on the processing

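On the genotype arrays 2 of the 10 genes passed (Gpx4 and Prdx5), beside 19.9% of all probes. The count was 5 with marked spots kept (beside 22.4%) and in the authors' table (22.3%), and 6 with normexp (14.7%). It was 5 with a mean log2 intensity over 6 (36.9% of such probes) and 4 with all probes of a gene averaged (17.9% of genes). Median centring gave 3 (Cat, Gpx4 and Prdx4, beside 11%). The scanner's log ratio (8.16%) and scaled ratios (11.5%) gave 1 (Gpx4). The count was 0 when these arrays were fitted alone (limma, beside 3.74%). It ranged from 1 to 5 as single arrays were left out, a lone array being assumed to vary like the others. In treated wild type cells 0 passed, against 1 with normexp, 1 with scaled ratios and 2 with own arrays alone, and 0 to 2 as single arrays were left out. In treated mutant cells median centring gave 3 and the other alternatives 0. Within Cy3 0 passed, and 0 to 1 as arrays were left out. The cause of these changes was not tested.

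The treatment arrays share replicate numbers, and the deviations of same-numbered arrays correlated with r of -0.0366 for ratios and 0.188 for Cy3. The labels tie the numbers to no shared litter, batch or day, and 2 pairs do not settle it, so the numbers were not taken to pair the samples. With the replicate block 1 of 5 testable genes passed on the genotype arrays (Gpx4), Prdx5 not being testable, and 0 of 5 to 7 elsewhere.

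Signs turned in these cases. With median centring the treated wild type ratio of Gpx4 was 0.27, mutant ratios were 0.50 for Gpx4, 1.22 for Prdx4 and 1.22 for Prdx6, differences of responses were 0.23 for Gpx4, 0.18 for Prdx3, 0.47 for Prdx4 and 0.51 for Prdx6, and Gpx1 was 0.19 on the genotype arrays. With all probes averaged Prdx2 was -0.13 in wild type, -0.11 in mutant cells and -0.19 on the genotype arrays. The scanner's log ratio gave Gpx1 -0.00174 in mutant cells. The difference of responses was -0.0245 for Cat and -0.0154 for Prdx2 with marked spots kept, and -0.0246 for Cat in the authors' table. Within Cy3 Prdx6 was 0.0396 with marked spots kept and 0.0318 after quantile normalization. As arrays were left out, the difference of responses ran from -0.0595 to 0.12 for Cat and -0.0211 to 0.13 for Prdx2, and the Cy3 difference from -0.38 to 0.18 for Gpx3 and -0.25 to 0.22 for Prdx6. Of 562 values for single genes under alternatives, 500 kept direction and side of the threshold, 23 turned sign, 32 newly passed and 7 no longer passed.

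Over all probes, 337 passed in wild type cells, against 982 with marked spots kept, 2042 with normexp, 578 with the scanner's log ratio, 18 with median centring, 997 in the authors' table, 10688 with own arrays alone, 589 with the intensity limit, 4417 scaled, 158 by gene mean, 0 with the block and 0 to 9485 as arrays were left out. In mutant cells 0 passed, against 2675 with median centring, 4968 with own arrays alone, 2320 scaled and 0 to 4567 as arrays were left out. For the difference of responses it was 0, against 782 with own arrays alone, 48 scaled and 0 to 782. On the genotype arrays 8199 passed, against 3352 with the scanner's log ratio, 4516 with median centring, 1537 alone, 4711 scaled, 3243 with the block, 5308 by gene mean and 3778 to 16344. Within Cy3 628 passed, against 293 with marked spots kept, 108 with normexp, 1389 after quantile normalization, 1486 with the block and 219 to 3953. Slide and the day on which the scanner software extracted the image could not be run as a block. Each slide held 1 array, and the images of the genotype arrays were extracted on other days than those of the treatment arrays.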
